A study of Mus musculus with 88 samples.

Results

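Nuclear RNA of hippocampal NeuN- nuclei was compared between mice taken 30 minutes after contextual fear conditioning (CFC30) and naive mice. NeuN is a nuclear protein of neurons, and NeuN- nuclei are those that a sorter left on the unstained side of the gate, so they were set apart by the lack of a neuronal mark and not by a glial mark. The comparison rested on 7 libraries, 4 of CFC30 and 3 of naive nuclei, out of 88 samples in the series, of which 74 were RNA libraries. Naive libraries 3 and 4 held the same value at every one of 53749 genes, and the pair was counted as 1 sample.

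All mice were C57BL/6J males aged 4 months. For conditioning, a mouse explored a chamber, received foot shocks through the floor and went back to its home cage, and time was counted from its placement in the chamber. Naive mice stayed in their home cages, so that handling, the new chamber and the shocks all differed between the groups. Nuclei were fixed in paraformaldehyde before sorting, and the strand-aware total RNA kit used afterwards keeps transcripts without a poly(A) tail. The study describes its RNA replicates as independent, without saying whether each library came from a separate mouse, and p-values measure the spread between these libraries. Libraries of 3 other experiments were set beside them: hippocampal NeuN- nuclei 10 minutes after conditioning (CFC10, 4 libraries), hippocampal NeuN+ nuclei at CFC30 (8 libraries with their naive group), and NeuN- nuclei of the medial prefrontal cortex (mPFC). A further experiment gave mice corticosterone or saline, collected the hippocampus 30 minutes later and sorted GFAP+ nuclei (a mark of astrocytes), PU.1+ nuclei (of microglia) and 3X- nuclei, which bound none of the antibodies against NeuN, GFAP and PU.1.

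Glia and vascular cells respond to a stressful event through several routes that are well described. Neuronal activity and neuromodulators raise cAMP and calcium in astrocytes and switch on early response genes, many of them through CREB, a factor that binds the cAMP response element in promoters. Adrenal glucocorticoids cross into the brain and bind the glucocorticoid receptor, which then binds DNA and induces genes such as *Sgk1*, *Fkbp5* and *Per1*. Protein damage or a heavy load of new protein frees the heat shock factor HSF1, which induces chaperones, the proteins that help others to fold. Nuclear RNA holds many unspliced transcripts and follows changes in transcription more closely than whole-cell RNA.

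Promoters of 5 genes that were higher at CFC30 are shown because each carries, in the 300 bases from 250 before to 50 after the RefSeq gene start, a match to a binding motif of these routes. Sequences are from RefSeq on GRCm38.p6, 5′ to 3′ on the strand of the gene, and capitals mark the match. *Arl4d* and *Dio2* hold the cAMP response element TGACGTCA, *Sgk1* and *Fam107a* a glucocorticoid response element (GNACA and TGTNC, 3 bases apart), and *Chordc1* overlapping copies of a heat shock element (GAA, TTC and GAA, with 2 bases between each and the next).

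Arl4d: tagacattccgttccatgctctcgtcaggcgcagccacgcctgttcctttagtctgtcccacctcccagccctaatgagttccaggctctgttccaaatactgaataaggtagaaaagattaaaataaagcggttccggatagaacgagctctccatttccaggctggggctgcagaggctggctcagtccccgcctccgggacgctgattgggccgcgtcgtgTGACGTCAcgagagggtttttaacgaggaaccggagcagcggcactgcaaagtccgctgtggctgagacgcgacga
Dio2: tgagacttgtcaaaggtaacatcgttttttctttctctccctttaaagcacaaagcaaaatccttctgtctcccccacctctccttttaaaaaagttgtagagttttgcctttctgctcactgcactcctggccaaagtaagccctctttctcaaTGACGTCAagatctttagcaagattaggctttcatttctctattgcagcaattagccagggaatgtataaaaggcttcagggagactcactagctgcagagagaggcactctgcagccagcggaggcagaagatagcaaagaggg
Sgk1: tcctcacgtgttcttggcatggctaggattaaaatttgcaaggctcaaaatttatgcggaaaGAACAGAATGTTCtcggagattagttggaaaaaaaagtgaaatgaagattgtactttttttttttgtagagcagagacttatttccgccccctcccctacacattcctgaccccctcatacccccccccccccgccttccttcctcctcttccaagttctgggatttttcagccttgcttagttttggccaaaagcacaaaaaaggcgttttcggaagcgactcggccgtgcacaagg
Fam107a: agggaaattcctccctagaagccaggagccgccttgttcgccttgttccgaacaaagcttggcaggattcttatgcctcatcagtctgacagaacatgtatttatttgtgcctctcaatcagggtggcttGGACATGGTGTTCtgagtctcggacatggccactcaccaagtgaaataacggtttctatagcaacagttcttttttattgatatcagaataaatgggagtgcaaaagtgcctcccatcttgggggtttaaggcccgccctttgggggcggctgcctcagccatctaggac
Chordc1: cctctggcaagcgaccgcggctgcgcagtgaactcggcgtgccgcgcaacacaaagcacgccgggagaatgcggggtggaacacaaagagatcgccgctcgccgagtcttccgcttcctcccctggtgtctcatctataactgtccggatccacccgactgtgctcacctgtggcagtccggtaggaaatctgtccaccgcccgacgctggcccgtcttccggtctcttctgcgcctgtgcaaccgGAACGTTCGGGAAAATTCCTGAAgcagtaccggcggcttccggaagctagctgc

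The windows lie at chr11:101665291-101665590 on the plus strand (*Arl4d*), chr12:90738989-90739288 on the minus strand (*Dio2*), chr10:21993640-21993939 on the plus strand (*Sgk1*), chr14:8309728-8310027 on the minus strand (*Fam107a*) and chr9:18292017-18292316 on the plus strand (*Chordc1*). The matches begin 26 bases before the start of *Arl4d*, 95 before that of *Dio2*, 188 before that of *Sgk1*, 120 before that of *Fam107a* and 4 before that of *Chordc1*. For *Sgk1*, *Fam107a* and *Chordc1* the RefSeq start lies inside the longer gene model over which reads were counted, and for *Dio2* it lies upstream of that model. Over both strands, the cAMP response element was present for 8 of the 148 higher genes that had a window (5.4%), for 5 of 138 lower genes (3.6%) and for 3.6% of all 10016 tested genes with one. The glucocorticoid response element was present for 2 of 148 higher genes (1.4%) and for 0.4% of all tested genes with a window, and the heat shock element for 1 of 148 (0.7%) and 0.6%. Each of these 2 elements was present for 1 of 138 lower genes (0.7%). Among listed chaperone genes with a window, 5 of 27 held the heat shock element (18.5%), and among listed glucocorticoid-responsive genes 3 of 37 held the glucocorticoid response element (8.1%). Of the listed members that rose and had a window, these were 1 of 6 chaperones and 1 of 9 glucocorticoid-responsive genes. A match in such a window is a description of the letters and not evidence of a bound site.

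The deposited counts added up to 11187967 to 13303836 reads in the CFC30 libraries and 10561897 to 13957777 in the naive ones. Levels are given as CPM, the counts of a gene scaled to a common library size by the total count of its library. TMM normalisation entered the tests and not these levels. Summed markers fitted the NeuN- gate: 12 astrocyte markers came to 6954.1 to 7359.9 CPM in NeuN- CFC30 libraries and 7195.3 to 7343.6 in NeuN- naive ones, against 743.0 to 888.6 in NeuN+ naive libraries, and excitatory neuron markers to 299.3 to 457.3 and 340.3 to 503.4, against 3293.2 to 3327.5 in NeuN+ naive libraries. Inhibitory neuron markers went the other way as a sum (253.9 to 297.6 in CFC30 and 262.7 to 279.4 in naive NeuN- libraries, 179.0 to 220.4 in NeuN+ naive ones). *Gad1*, which makes GABA, averaged 16.8 and 19.1 CPM in CFC30 and naive NeuN- nuclei, against 43.8 in NeuN+ naive nuclei. Endothelial markers split the CFC30 group, with 673.8 CPM in library 1, 670.5 in library 2 and 344.0 in library 4, library 3 being lower still, against 325.9, 494.4 and 376.8 in the naive libraries. In sorted pools of many cell types, more nuclei of a type and more RNA per nucleus cannot be told apart.

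Of 14802 genes tested, 190 were higher in CFC30 than in naive NeuN- nuclei (1.28%) and 199 were lower (1.34%) at an adjusted p under 0.05 in edgeR's quasi-likelihood test. The changes were moderate. The median log2 fold change was 0.41 among the genes that rose and -0.46 among those that fell, and 10 genes in each direction moved by more than 2-fold. At an unadjusted p under 0.05 there were 2402 genes. The CPM of the groups did not overlap for 189 of the genes that rose and 198 of those that fell; over all tested genes, 8.05% stood wholly above and 8.24% wholly below the naive libraries, and this criterion is therefore much looser than the call.

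The genes that rose and fell are first described by class. Of the 190 genes that rose, 187 were protein-coding (98.4%), whereas 128 of the 199 that fell were (64.3%), set against 80.4% of all tested genes. Among those that fell were 21 processed transcripts, 20 lincRNA genes and 17 antisense genes, out of 201, 501 and 433 tested. The median gene body was 29641 bp for genes that rose and 37583 bp for genes that fell, against 18165 bp over all tested genes. The median naive CPM was also higher, at 41.8 for genes that rose and 30.54 for genes that fell, against 16.3 over all. The part of these levels in the lengths and shares of this paragraph was not tested. Of the genes that fell, 130 overlapped another annotated gene (65.3%), as did 109 of those that rose (57.4%) and 54.8% of all. Whether the reads were counted by strand is not stated, and for such genes reads of a neighbour cannot be told apart. A hippocampal γH2AX peak, a mark of DNA double-strand breaks called in whole tissue, was annotated to 12 of the genes that rose (6.32%), to 6 of those that fell (3.02%) and to 2.01% of all tested genes.

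**Figure D1:**
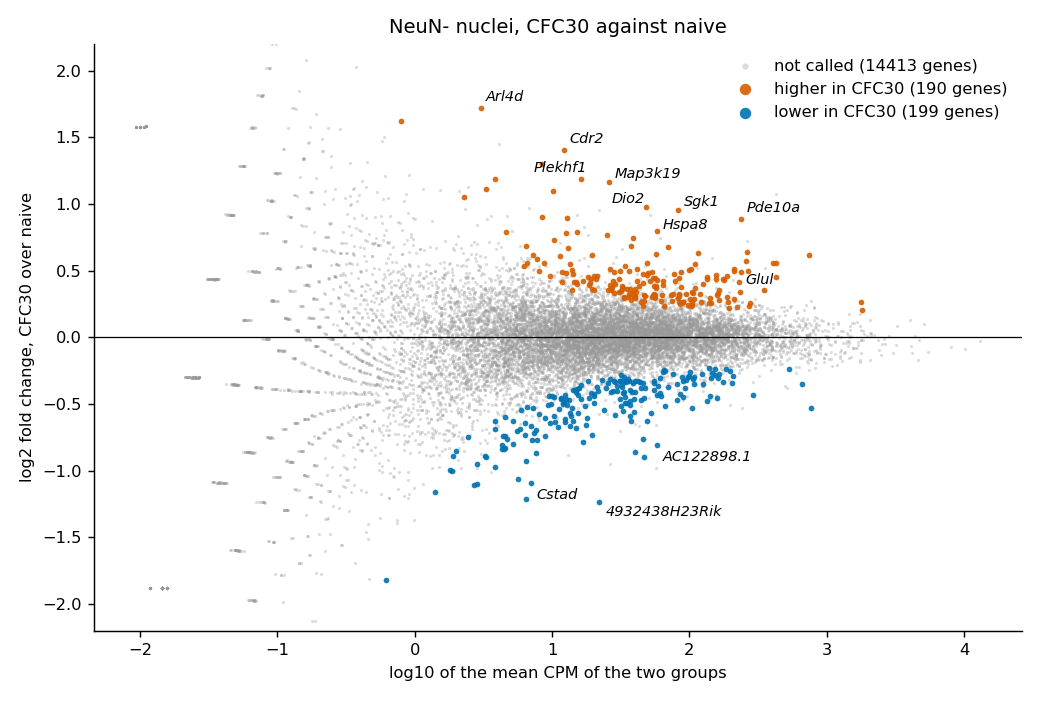
Log2 fold change of CFC30 over naive NeuN- nuclei (vertical axis) against the log10 of the mean CPM of both groups (horizontal axis) for the tested genes, 1 point a gene; 258 genes beyond the axes or without counts are not drawn. Orange points are genes called higher (190 in all) and blue points genes called lower (199 in all) at an adjusted p under 0.05. The called gene *Gm43266* (log2 fold change -2.45) lies beyond the axis, and most called genes lie within 1 log2 unit of 0.

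Genes were ranked among calls whose groups did not overlap, with at least 50 counts on average on the higher side. By that rule the largest rises were those of *Arl4d* and *Cdr2*. *Hist1h3d*, called but outside that rule, had a log2 fold change of 1.62. *Arl4d*, a small GTPase of the ARF family (chr11:101665541-101667832, plus strand), had 3.79, 6.04, 4.59 and 4.11 CPM in the CFC30 libraries, against 1.71, 1.15 and 1.39 CPM in the naive libraries, a log2 fold change of 1.72 (SE 0.26, adjusted p = 0.00189). *Cdr2*, a cytoplasmic protein known as an antigen in paraneoplastic cerebellar degeneration, had 15.2, 16.2, 24 and 15.5 CPM at CFC30, against 6.06, 6.24 and 7.82 CPM in naive nuclei (log2 fold change 1.41, SE 0.21, adjusted p = 0.0062). Neither gene had a CFC30 library within the range of the naive ones. Library 3 stood above the others for *Cdr2* and library 2 for *Arl4d*. In nuclei of saline-treated mice both had their highest mean in 3X- nuclei: 6.24 CPM in 3X- nuclei for *Arl4d*, against 1.23 in GFAP+, 0.842 in PU.1+ and 0.324 in NeuN+ nuclei, and 27.2 CPM in 3X- nuclei for *Cdr2*, against 3.0, 1.77 and 0.479.

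*Plekhf1*, which encodes an endosomal protein with a PH and a FYVE domain (chr7:38216972-38228016), had 22.9, 27.0, 20.3 and 20.7 CPM at CFC30, against 10.4, 9.46 and 9.99 CPM in naive nuclei (log2 fold change 1.19, SE 0.13, adjusted p = 8.73e-05). In saline mice it was highest in 3X- nuclei, with means of 37.4 CPM there, 5.41 in GFAP+, 0.802 in PU.1+ and 0.0250 in NeuN+ nuclei. *Map3k19*, a kinase of the MAP3K family (chr1:127815253-127855031), had 38.9, 33.2, 40.3 and 30.6 CPM at CFC30, against 16.4, 17.1 and 14.4 CPM in naive nuclei (log2 fold change 1.16, SE 0.15, adjusted p = 0.00164). Its saline level was highest in GFAP+ nuclei, at 35.7 CPM. All 4 CFC30 libraries lay well above the naive ones for both genes.

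*Dio2* encodes the deiodinase that turns thyroxine into active triiodothyronine, which in brain is mainly the work of astrocytes and tanycytes. It had 71.7, 60.1, 66.8 and 56.6 CPM at CFC30, against 30.2, 31.5 and 35.5 CPM in naive nuclei (chr12:90724552-90738438, log2 fold change 0.98, SE 0.13, adjusted p = 0.00189). In saline mice it averaged 78.0 CPM in GFAP+ nuclei and 0.379 in NeuN+ nuclei. *Slco1c1*, which carries thyroid hormone into brain endothelium and astrocytes, had 329, 270.1, 250.3 and 258 CPM at CFC30, against 194, 198 and 198 CPM in naive nuclei (log2 fold change 0.49, adjusted p = 0.0301), and *Mfsd2a*, a lipid transporter of the blood-brain barrier, had 26.4, 27.2, 21.1 and 20.6 CPM, against 14.2, 17.2 and 14.8 CPM (log2 fold change 0.62, adjusted p = 0.00855). Both were picked out after their values were seen. Without the CFC30 libraries 1 and 2, which had the highest endothelial marker sums, the log2 fold changes were 0.37 (adjusted p = 0.135) for *Slco1c1* and 0.43 (adjusted p = 0.114) for *Mfsd2a*, and neither was called.

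*Pde10a*, a phosphodiesterase that breaks down cAMP and cGMP (chr17:8525372-8986648), had 367, 312, 275 and 290.1 CPM at CFC30, against 162, 180.5 and 161 CPM in naive nuclei (log2 fold change 0.89, SE 0.13, adjusted p = 0.00521). Its level in saline mice was highest in NeuN+ nuclei, with a mean of 1064 CPM, against 267 in GFAP+ and 245 in 3X- nuclei. Excitatory marker sums in NeuN- nuclei were 425.2, 457.3, 299.3 and 312.9 CPM in CFC30 libraries 1 to 4, against 340.3, 503.4 and 342.0 CPM in naive libraries. They were highest within CFC30 in libraries 1 and 2, as was *Pde10a*, and their part in its rise was not tested. *Gem*, a GTPase that restrains voltage-gated calcium channels, had 5.48, 5.95, 2.71 and 4.20 CPM at CFC30, against 1.89, 2.51 and 1.82 CPM in naive nuclei (log2 fold change 1.11, adjusted p = 0.0271). *Gm19439*, a transcript of 2273 bp still to be experimentally characterised, had 14.2, 22.4, 14.4 and 16.2 CPM at CFC30, against 9.09, 7.81 and 10.2 CPM in naive nuclei (log2 fold change 0.90, adjusted p = 0.00695), and was highest in 3X- nuclei of saline mice at 27.9 CPM.

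**Figure D2:**
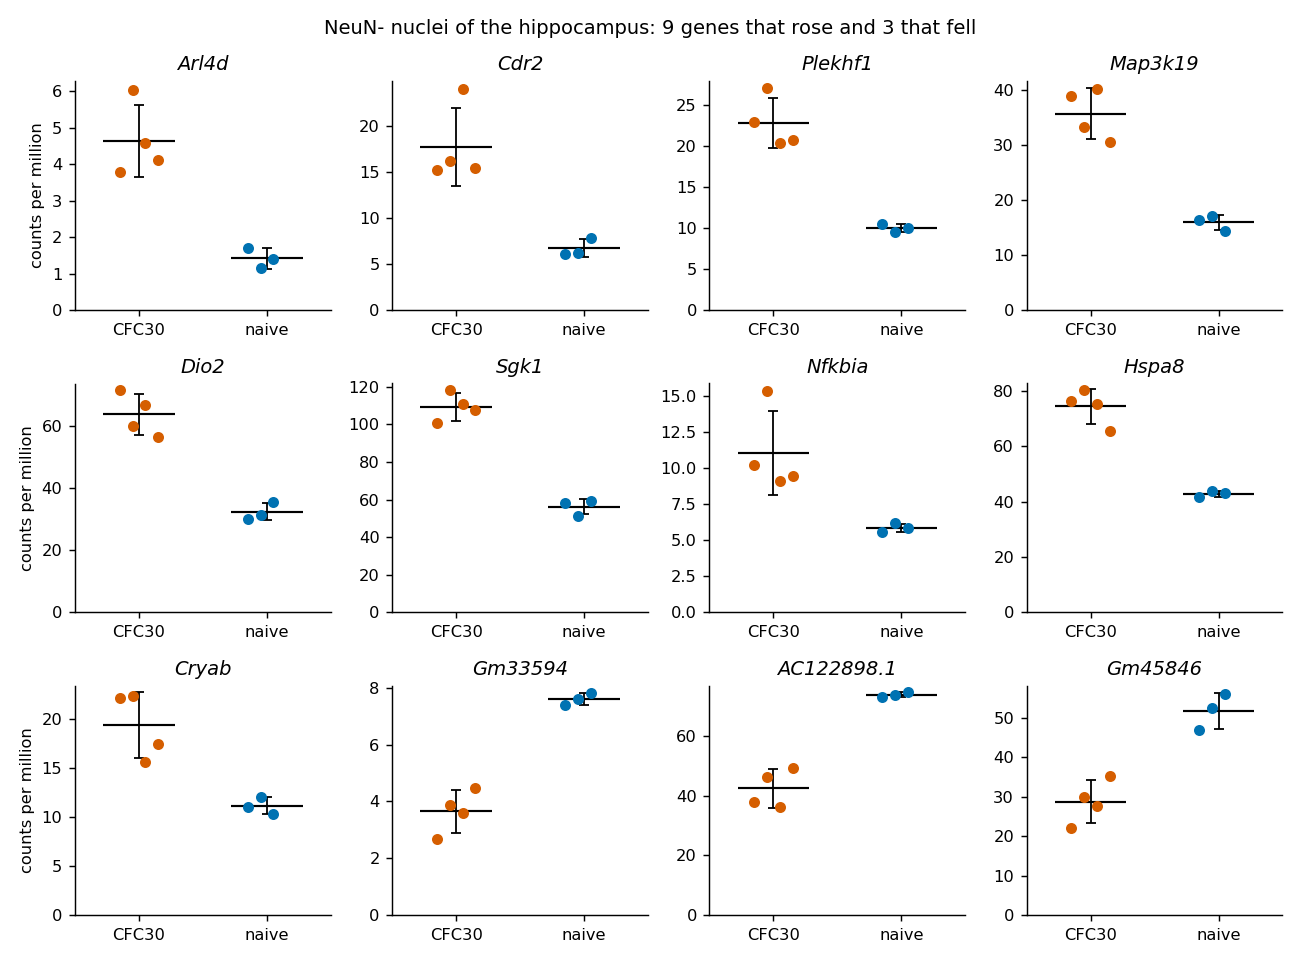
CPM of 12 genes in each NeuN- library (points) at CFC30 (orange, n = 4) and in naive nuclei (blue, n = 3), with the mean (long bar) and SD (error bar); every vertical axis starts at 0. The groups do not overlap for any of the 9 genes that rose or the 3 that fell.

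Early response transcription factor genes rose in a small number of cases. Of 31 annotated members of the list 23 passed the filter on low values, and 3 of these were higher at CFC30 and 0 lower, with a median log2 fold change of 0.18 over the 23 and of -7e-04 over all 14802 tested genes. *Fosl2*, a *Fos*-related partner of *Jun* proteins, had 8.06, 9.84, 7.22 and 6.88 CPM at CFC30, against 5.02, 5.02 and 4.86 CPM in naive nuclei (log2 fold change 0.68, adjusted p = 0.0162). *Nr4a3*, an orphan nuclear receptor, had 17.7, 16.9, 12.2 and 9.21 CPM at CFC30, against 6.16, 7.17 and 6.17 CPM (log2 fold change 1.10, adjusted p = 0.0259). *Nr4a1*, of the same family, had 9.27, 10.7, 7.59 and 7.69 CPM at CFC30, against 5.87, 6.09 and 5.21 CPM (log2 fold change 0.61, adjusted p = 0.0358). For each of these 3 genes libraries 1 and 2 were above libraries 3 and 4.

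Those same libraries had the highest endothelial marker sums of the group. They also had its highest excitatory neuron sums (425.2 and 457.3 CPM, against 299.3 and 312.9 in CFC30 libraries 3 and 4) and mural cell sums (385.6 and 445.4 CPM, against 299.7 and 333.5). The part of these sums in the result was not tested. Without them, 0 of the 23 early response factors were called and the list's median log2 fold change was -0.02; the values were 0.51 for *Fosl2* (adjusted p = 0.152), 0.72 for *Nr4a3* (adjusted p = 0.102) and 0.42 for *Nr4a1* (adjusted p = 0.282). *Egr1*, a zinc finger factor, had 2.18, 2.85, 1.88 and 1.52 CPM at CFC30, against 0.568, 0.860 and 1.48 CPM in naive nuclei, and did not pass (log2 fold change 1.10, adjusted p = 0.0636). *Fos* had 0.564, 1.04, 0.902 and 0.805 CPM at CFC30, against 0.568, 0.717 and 0.347 CPM in naive nuclei (log2 fold change 0.57, adjusted p = 0.48). *Npas4*, known best from neurons, fell under the filter, with 0.161, 0.863, 0.526 and 0.536 CPM at CFC30, against 0.284, 0.502 and 0.174 CPM in naive nuclei.

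Among effector genes that neuronal activity induces, 1 of 13 tested members rose. It was *Sik1*, a kinase that is induced by CREB and restrains CREB's coactivators (chr17:31844250-31855804), with 14.2, 16.4, 9.47 and 8.14 CPM at CFC30, against 3.98, 5.02 and 5.56 CPM in naive nuclei (log2 fold change 1.30, SE 0.28, adjusted p = 0.04). Libraries 1 and 2 were again the higher ones, and without them the value was 0.86 (adjusted p = 0.128). *Arc*, a synaptic protein of neurons, had 6.69, 9.58, 6.92 and 6.71 CPM at CFC30, against 5.78, 7.17 and 5.91 CPM in naive NeuN- nuclei (log2 fold change 0.24, adjusted p = 0.542); in NeuN+ nuclei its log2 fold change was 1.16 (adjusted p = 0.00133). None of 11 tested feedback inhibitors of MAPK signalling was called in NeuN- nuclei, and their median log2 fold change was -0.10.

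Genes known to respond to glucocorticoids held 9 of the rises. Of 43 tested members 9 were higher, where 1.28% of all tested genes were, and 0 lower, 37 had a positive log2 fold change, and the median was 0.30. The 9 were *Sgk1*, *Il6ra*, *Nfkbia*, *Glul*, *Foxo1*, *Klf9*, *Per1*, *Klf15* and *Arrdc3*. All CFC30 libraries lay above all naive ones for 24 of the 43 and below them for 1, where 8.05% and 8.24% of all tested genes did so. Without CFC30 libraries 1 and 2, 6 members of the list were higher and the median was 0.29. They were *Sgk1*, *Il6ra*, *Nfkbia*, *Foxo1*, *Arrdc3* and *Pdk4*, the last of which (adjusted p = 0.0259) was not among the 9. In that fit *Per1* (adjusted p = 0.0786), *Glul* (0.0926), *Klf9* (0.123) and *Klf15* (0.149) were not called.

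*Sgk1*, a kinase induced by glucocorticoids that controls ion transport (chr10:21882184-21999903), had 100.5, 118, 111 and 108 CPM at CFC30, against 58.3, 51.5 and 59.0 CPM in naive nuclei (log2 fold change 0.96, SE 0.08, adjusted p = 1.01e-05), the smallest adjusted p of the comparison. *Nfkbia* encodes the inhibitor that holds NF-κB in the cytoplasm, and had 10.2, 15.4, 9.10 and 9.48 CPM at CFC30, against 5.59, 6.16 and 5.82 CPM in naive nuclei (log2 fold change 0.90, SE 0.16, adjusted p = 0.00696). *Il6ra*, a receptor subunit for interleukin-6, had 72.8, 62.6, 68.7 and 63.9 CPM at CFC30, against 52.3, 48.2 and 48.8 CPM in naive nuclei (log2 fold change 0.43, adjusted p = 0.00478). These 3 genes differ in where they are read: in saline mice *Il6ra* averaged 475 CPM in PU.1+ nuclei and 5.08 in 3X- nuclei, whereas *Sgk1* averaged 192 CPM in 3X-, 75.2 in PU.1+ and 36.4 in GFAP+ nuclei.

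*Glul*, the glutamine synthetase of astrocytes, had 270.2, 277, 240.1 and 252 CPM at CFC30, against 211, 212 and 190.4 CPM in naive nuclei (log2 fold change 0.34, SE 0.06, adjusted p = 0.00702). *Foxo1*, a transcription factor under insulin signalling, had 246, 225, 268 and 259 CPM at CFC30, against 165, 179 and 179 CPM in naive nuclei (log2 fold change 0.52, adjusted p = 0.00762). *Per1*, a clock gene with a glucocorticoid response of its own, had 83.3, 109, 74.5 and 76.3 CPM at CFC30, against 49.6, 52.5 and 58.4 CPM in naive nuclei (log2 fold change 0.68, adjusted p = 0.0301). All of these kept the CFC30 libraries above the naive ones, and the smallest relative change was that of *Glul*. *Fam107a*, a stress-responsive actin regulator that was picked out for its promoter, had 142, 137, 152 and 132 CPM at CFC30, against 85.0, 99.1 and 87.3 CPM in naive nuclei (log2 fold change 0.64, adjusted p = 0.00537).

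Other well-known genes of this route did not pass. *Fkbp5*, a co-chaperone of the glucocorticoid receptor, had 69.7, 86.9, 82.3 and 65.0 CPM at CFC30, against 33.9, 38.3 and 63.8 CPM in naive nuclei (log2 fold change 0.74, SE 0.33, adjusted p = 0.317), the third naive library standing well above the other naive ones. *Ddit4*, an inhibitor of mTOR signalling, had 4.27, 6.30, 5.04 and 3.04 CPM at CFC30, against 2.94, 2.01 and 2.60 CPM in naive nuclei (log2 fold change 0.91, adjusted p = 0.0605). *Nr3c1*, the gene of the receptor itself, had 253, 224, 259 and 288 CPM at CFC30, against 257, 238 and 256 CPM in naive nuclei (log2 fold change 0.03, adjusted p = 0.897).

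Chaperone genes of the cytosol and mitochondria had the highest median of the 17 response lists with all libraries, though not without CFC30 libraries 1 and 2 (0.25, against 0.29 for glucocorticoid-responsive genes). Of 34 tested members 9 were higher at CFC30, where 1.28% of all tested genes were, and 0 lower. Of the 34, 29 had a positive log2 fold change, and the median was 0.41. The groups were apart, with CFC30 above, for 18 of them, against 8.05% of all tested genes. *Hspa8*, the constitutive cytosolic HSP70 (chr9:40800984-40810087), had 76.3, 80.3, 75.3 and 65.5 CPM at CFC30, against 41.5, 43.9 and 43.0 CPM in naive nuclei (log2 fold change 0.80, SE 0.08, adjusted p = 4.48e-05). *Cryab*, the small heat shock protein αB-crystallin (chr9:50751325-50756636), had 22.2, 22.4, 15.6 and 17.4 CPM at CFC30, against 11.1, 12 and 10.3 CPM in naive nuclei (log2 fold change 0.79, SE 0.13, adjusted p = 0.00415). In saline mice *Cryab* was highest in 3X- nuclei (33.5 CPM, against 4.35 in GFAP+ nuclei), whereas *Hspa8* was read in all 4 populations (64.2 CPM in 3X-, 74.2 in GFAP+, 65.7 in PU.1+ and 34.8 in NeuN+ nuclei). The *Hspa8* gene body holds genes of small nucleolar RNAs, and *Cryab* overlaps *Hspb2* on the other strand, so their counts may hold reads of both.

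Cofactors of HSP90 made up much of the rest. *Ahsa2*, an activator of the HSP90 ATPase, had 53.5, 51.9, 42.3 and 39.6 CPM at CFC30, against 28.6, 28.5 and 29.9 CPM in naive nuclei (log2 fold change 0.69, SE 0.10, adjusted p = 0.00125). *Chordc1*, which binds HSP90 and carries the heat shock element shown above, had 62.5, 58.7, 58.7 and 52.9 CPM at CFC30, against 40.7, 40.4 and 43.7 CPM in naive nuclei (log2 fold change 0.48, SE 0.08, adjusted p = 0.00392). *Ahsa1*, *Fkbp4*, *Ptges3*, *St13* and the HSP40 gene *Dnaja1* also rose, with log2 fold changes between 0.39 (*St13*) and 0.73 (*Ahsa1*). *Hsph1*, an HSP110, had 77.1, 86.0, 57.8 and 52.0 CPM at CFC30, against 31.8, 37.8 and 38.1 CPM in naive nuclei, and did not pass (log2 fold change 0.92, adjusted p = 0.0604).

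Chaperone levels also differed within the CFC30 group. The list added up to 1273.4, 1387.0, 1196.5 and 1160.2 CPM in CFC30 libraries 1 to 4, against 963.7, 1008.2 and 989.1 CPM in the naive libraries. Libraries 1 and 2 were thus the higher ones here too, and all 4 were above naive. Without libraries 1 and 2, 3 members were called and the median log2 fold change was 0.25, with *Hspa8* at 0.73 (adjusted p = 0.000793) and *Cryab* at 0.57 (adjusted p = 0.0613). Of the 8 subunits of the chaperonin TRiC, which folds actin and tubulin, all had a positive log2 fold change (median 0.21) and 1 was called, *Cct3*, with 21.5, 25.3, 22.6 and 24.3 CPM at CFC30, against 18.4, 16.1 and 16.7 CPM in naive nuclei (log2 fold change 0.46, adjusted p = 0.0255).

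In the endoplasmic reticulum, 2 of 28 tested genes of the unfolded protein response rose (median log2 fold change 0.11). *Hspa5*, the chaperone BiP of that compartment, had 61.9, 55.5, 63.9 and 54.5 CPM at CFC30, against 41.2, 46.0 and 44.5 CPM in naive nuclei (log2 fold change 0.42, adjusted p = 0.0266), and *Xbp1*, a transcription factor of that response, had 15.4, 15.0, 12.9 and 11.7 CPM, against 10.9, 9.10 and 9.47 CPM (log2 fold change 0.49, adjusted p = 0.0452). Without libraries 1 and 2 0 of 28 were called, with *Hspa5* at 0.44 (adjusted p = 0.109) and *Xbp1* at 0.34 (adjusted p = 0.32). None of 22 tested ubiquitin and proteasome genes was called (median 0.04), nor any of 17 actin cytoskeleton genes (median 0.03).

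**Figure D3:**
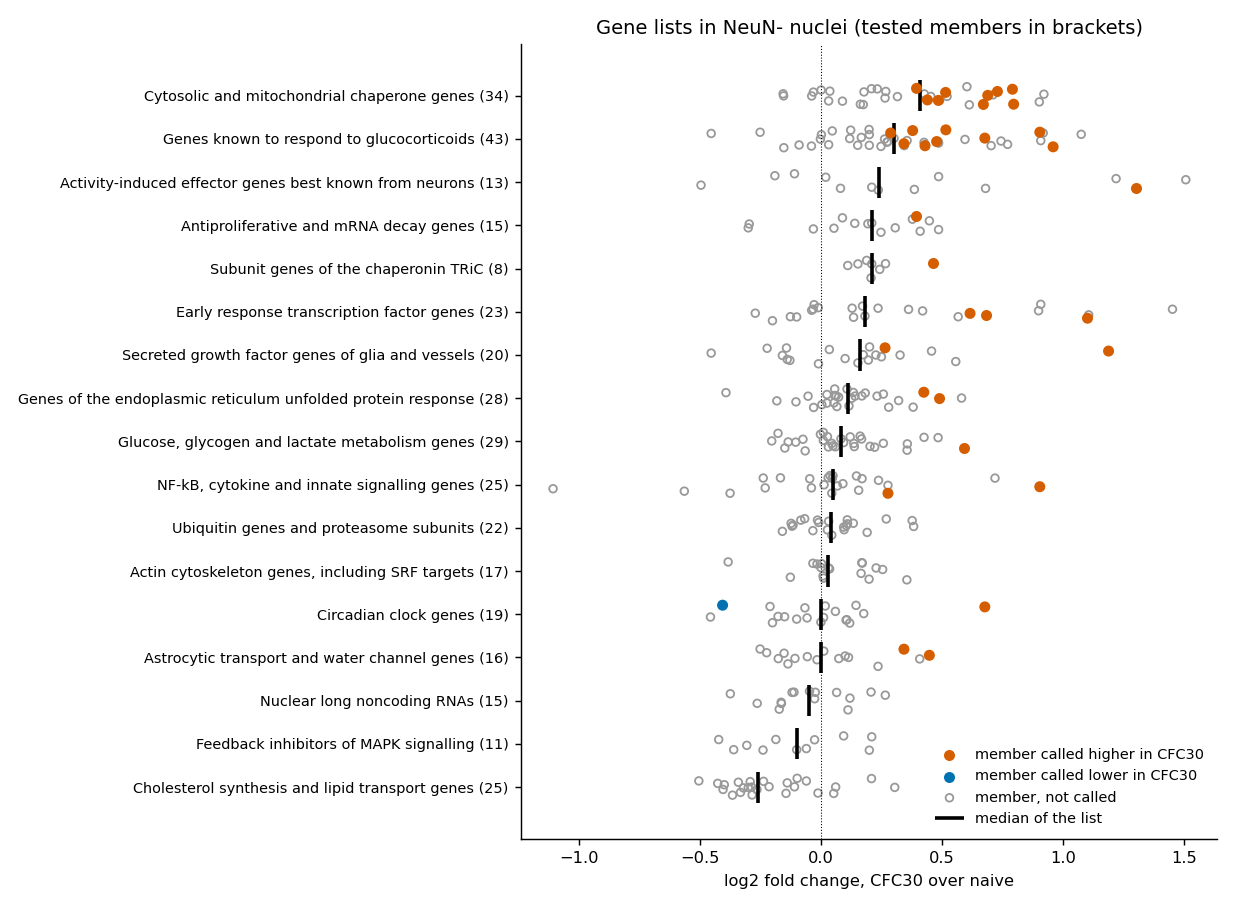
Log2 fold change of CFC30 over naive NeuN- nuclei (horizontal axis) for the tested members of 17 gene lists (rows, with the number tested in brackets); filled points are members called at an adjusted p under 0.05, open points members not called, and black bars medians. Chaperones (median 0.41) and glucocorticoid-responsive genes (0.30) stand at the top, with 9 called members each, and cholesterol genes (-0.26) at the bottom with none.

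Other lists held few calls. Among 25 tested genes of NF-κB, cytokine and innate signalling 2 rose, *Nfkbia* and *Stat3*, the transcription factor that interleukin-6 activates, which had 88.0, 80.5, 75.5 and 83.4 CPM at CFC30, against 68.5, 66.2 and 67.8 CPM in naive nuclei (log2 fold change 0.28, adjusted p = 0.031). Among 20 secreted growth factor genes 2 rose. *Ccn1*, a matrix-bound signalling protein, had 6.53, 5.61, 5.34 and 3.93 CPM at CFC30, against 2.75, 1.58 and 2.87 CPM in naive nuclei (log2 fold change 1.19, adjusted p = 0.0119), and *Sparc*, also a matrix protein, had a log2 fold change of 0.26 (adjusted p = 0.0403). *Ldha*, a subunit of lactate dehydrogenase, was the 1 of 29 energy genes that rose, with 10.2, 10.8, 8.57 and 7.96 CPM at CFC30, against 5.68, 6.38 and 6.51 CPM (log2 fold change 0.59, adjusted p = 0.0327).

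Of 19 clock genes, *Per1* rose and *Dbp*, a clock-controlled transcription factor, fell: it had 31.5, 33.0, 23.2 and 28.7 CPM at CFC30, against 37.1, 43.1 and 34.8 CPM in naive nuclei (log2 fold change -0.41, adjusted p = 0.0392), and it overlaps *Sphk2* on the other strand. Of 15 antiproliferative and mRNA decay genes, *Tob2* rose (log2 fold change 0.39, adjusted p = 0.0437). Among 16 astrocytic transport genes, *Glul* and *Gjb6*, the connexin 30 of astrocyte gap junctions, rose. *Gjb6* had 67.4, 64.0, 63.8 and 65.6 CPM at CFC30, against 45.4, 48.1 and 49.8 CPM in naive nuclei (log2 fold change 0.45, adjusted p = 0.0137).

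Cholesterol synthesis and lipid transport genes had the lowest median, -0.26 over 25 tested members. Of these, 21 did not have a positive value. In all, 10 stood wholly below the naive libraries, against 8.24% of all tested genes, yet 0 passed the test. The smallest adjusted p was that of *Hsd17b7* (log2 fold change -0.43, adjusted p = 0.0517). None of 15 nuclear long noncoding RNAs on a list of well-known ones was called.

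Markers of cell types were mostly level between the groups. Of 12 astrocyte markers *Gjb6* rose and of 12 oligodendrocyte markers *Mobp* did, whereas 0 of 12 microglia and 0 of 10 endothelial markers were called. *Mobp*, a structural protein of myelin, had 822, 922, 1006 and 851 CPM at CFC30, against 596, 579.9 and 582 CPM in naive nuclei (log2 fold change 0.62, adjusted p = 0.00228). The summed oligodendrocyte markers came to 6011.5 to 6498.2 CPM at CFC30, against 5619.0 to 5988.0 CPM in naive nuclei. Without *Mobp* the sums of the other 11 markers overlapped, at 5189.7 to 5492.0 CPM at CFC30 and 5037.5 to 5393.0 CPM in naive nuclei. The median log2 fold change of the 12 markers was 0.02.

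The genes that fell included many noncoding transcripts. *AC122898.1*, a transcript of 49867 bp that overlaps the transcription factor gene *Pou3f3* (chr1:42694925-42744791), had 37.9, 46.4, 36.2 and 49.5 CPM at CFC30, against 73.2, 73.8 and 74.9 CPM in naive nuclei (log2 fold change -0.81, SE 0.09, adjusted p = 8.11e-05). *Gm45846*, a lincRNA of 138305 bp that overlaps *Tnrc6a* on the same strand (chr7:123031374-123169678), had 22.1, 29.9, 27.7 and 35.3 CPM at CFC30, against 47.1, 52.5 and 56.1 CPM in naive nuclei (log2 fold change -0.86, SE 0.12, adjusted p = 0.00223). *Gm33594*, a lincRNA that overlaps no other annotated gene, had 2.66, 3.88, 3.61 and 4.47 CPM at CFC30, against 7.39, 7.60 and 7.82 CPM (log2 fold change -1.06, SE 0.15, adjusted p = 0.00178). All CFC30 libraries lay below all naive ones for these 3 transcripts.

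By the rule used for the rises, the largest falls by fold were those of *4932438H23Rik* and *4930447K03Rik*. Called genes outside that rule included *Gm43266* (log2 fold change -2.45) and *H3f3a-ps2* (-1.82). For *4932438H23Rik* the CPM were 10.1, 13.9, 8.57 and 20.3 at CFC30, against 32.1, 28.2 and 32.4 in naive nuclei (log2 fold change -1.24, adjusted p = 0.0227), and for *4930447K03Rik* they were 3.06, 3.28, 3.08 and 6.35, against 8.81, 7.45 and 11 (log2 fold change -1.21, adjusted p = 0.0107). Library 4 was the highest CFC30 library for both. Both were read mainly in GFAP+ nuclei of saline mice, at 41.3 and 14.1 CPM. *Zc3h6*, a zinc finger protein gene, had 28.1, 29.2, 33.3 and 40.3 CPM at CFC30, against 63.0, 59.0 and 60.4 CPM in naive nuclei (log2 fold change -0.90, adjusted p = 0.0226), and *Cstad* had 4.68, 4.06, 4.06 and 5.19 CPM, against 9.76, 10.8 and 7.99 CPM (log2 fold change -1.09, adjusted p = 0.0226). The other named falls, *Gm28836*, *Gm45854*, *Ighd*, *Tmem220*, *Gm10687*, *Gm8013*, *Spata3* and *Gm26728*, had log2 fold changes from -0.97 (*Gm28836*) to -0.83 (*Gm26728*). *Gm10687* is antisense to *Mcam* and *Gm26728* lies opposite *Cd9*.

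The populations of the corticosterone experiment showed where the genes that rose or fell were read in saline-treated mice. Of the genes that rose, 46.3% had their highest mean CPM in PU.1+ nuclei, 25.8% in 3X-, 23.2% in GFAP+ and 4.7% in NeuN+ nuclei. Over all tested genes these shares were 41.7%, 19.8%, 22.3% and 16.3%. Of the genes that fell, 38.2% were highest in GFAP+, 23.6% in 3X-, 21.1% in PU.1+ and 17.1% in NeuN+ nuclei. The falls thus leaned to GFAP+ nuclei, and the rises held few genes that were highest in NeuN+ nuclei.

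The time after conditioning was compared within NeuN- nuclei. At CFC10, 22 genes were higher than in naive nuclei (0.149%) and 41 were lower (0.277%). Between CFC30 and CFC10 the test found 15 genes higher at CFC30 (0.101%) and 13 lower (0.0878%). These calls were unstable, with 1 higher and 0 lower when only those groups were fitted, and 1 and 1 without CFC30 libraries 1 and 2. Without single CFC10 libraries 1 to 4 the counts were 35 and 26, 4 and 0, 13 and 7, and 7 and 3. Without single CFC30 libraries 1 to 4 they were 3 and 0, 10 and 8, 11 and 8, and 14 and 5. Since the comparisons of CFC10 and of CFC30 with naive nuclei share the naive libraries, their values are only given side by side.

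*Sgk1* averaged 56.3 ± 4.15 CPM in naive nuclei (SD, n = 3), and its 4 CFC10 libraries had 81.0, 73.3, 76.8 and 62.7 CPM, below every CFC30 library (log2 fold change of CFC30 over CFC10 0.61, adjusted p = 0.00205). *Map3k19* had 21.9, 13.3, 19.3 and 15.5 CPM at CFC10, which overlaps the naive values given above, and was lower there than in any CFC30 library (log2 fold change 1.07, adjusted p = 0.00575). *Dio2* had 46.5, 33.6, 49.3 and 38.6 CPM at CFC10 (log2 fold change of CFC30 over CFC10 0.64, adjusted p = 0.0424). For these 3 genes most of the difference from naive was thus measured at the later time.

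*Usp2*, a deubiquitinase, had 45.1, 46.6 and 43.3 CPM in naive nuclei, 57.5, 52.8, 53.4 and 48.2 CPM at CFC10 and 70.9, 69.6, 70.7 and 67.3 CPM at CFC30. The log2 fold change was 0.63 for CFC30 over naive (adjusted p = 8.11e-05), 0.19 for CFC10 over naive (adjusted p = 0.188) and 0.43 for CFC30 over CFC10 (adjusted p = 0.00575). All CFC30 libraries lay above all CFC10 ones, and these above all naive ones. *Glul* had 221, 221, 221 and 209 CPM at CFC10 (log2 fold change of CFC30 over CFC10 0.29, adjusted p = 0.0424), and *Foxo1* had 223, 164, 192 and 179.7 CPM (0.43, adjusted p = 0.0434). *Sgk1*, *Foxo1* and *Glul* were the 3 of 43 glucocorticoid-responsive genes that were higher at CFC30 than at CFC10, whereas 0 of 43 were called at CFC10 against naive.

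Among chaperones, *Hspa8* and *Cryab* stood out at the earlier time. *Hspa8* had 41.5, 43.9 and 43.0 CPM in naive nuclei, 78.7, 81.9, 71.0 and 65.9 CPM at CFC10 and 76.3, 80.3, 75.3 and 65.5 CPM at CFC30. At CFC10 it exceeded naive nuclei by 0.76 on the log2 scale (adjusted p = 0.000206), and the log2 fold change of CFC30 over CFC10 was 0.04 (SE 0.07, adjusted p = 0.906). *Cryab* had 16.3, 20.8, 20.0 and 16.5 CPM at CFC10, with a log2 fold change over naive of 0.68 (adjusted p = 0.0334) and of CFC30 over CFC10 of 0.11 (adjusted p = 0.812). Both genes were thus already raised at CFC10. They were the 2 of 34 chaperone genes called at CFC10, and 0 of 34 differed between the times.

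Some genes were higher at CFC10 than at CFC30. *Fos* had 1.97, 1.59, 1.72 and 1.87 CPM at CFC10, all above its CFC30 and naive libraries, and its log2 fold change of CFC10 over naive was 1.63 (adjusted p = 0.0286); CFC30 over CFC10 was -1.07 (adjusted p = 0.114) and was not called. *Dynll1*, a light chain of dynein, had 7.48, 6.59 and 7.21 CPM in naive nuclei, 17.2, 16.6, 13.8 and 14.3 CPM at CFC10 and 9.76, 10.0, 12.3 and 9.48 CPM at CFC30 (log2 fold change of CFC30 over CFC10 -0.53, adjusted p = 0.0472; of CFC30 over naive 0.56, adjusted p = 0.0267). *Prdx1*, a peroxiredoxin, and *Eno1*, an enolase of glycolysis, were lower at CFC30 than at CFC10, *Prdx1* with a log2 fold change of -0.53 (adjusted p = 0.015) and *Eno1* with one of -0.39 (adjusted p = 0.0347). CFC30 over naive was not called for either gene. Of the fallen transcripts, *AC122898.1* had 43.3, 48.0, 44.6 and 46.0 CPM at CFC10, close to its CFC30 values (log2 fold change of CFC30 over CFC10 -0.06, adjusted p = 0.873).

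**Figure D4:**
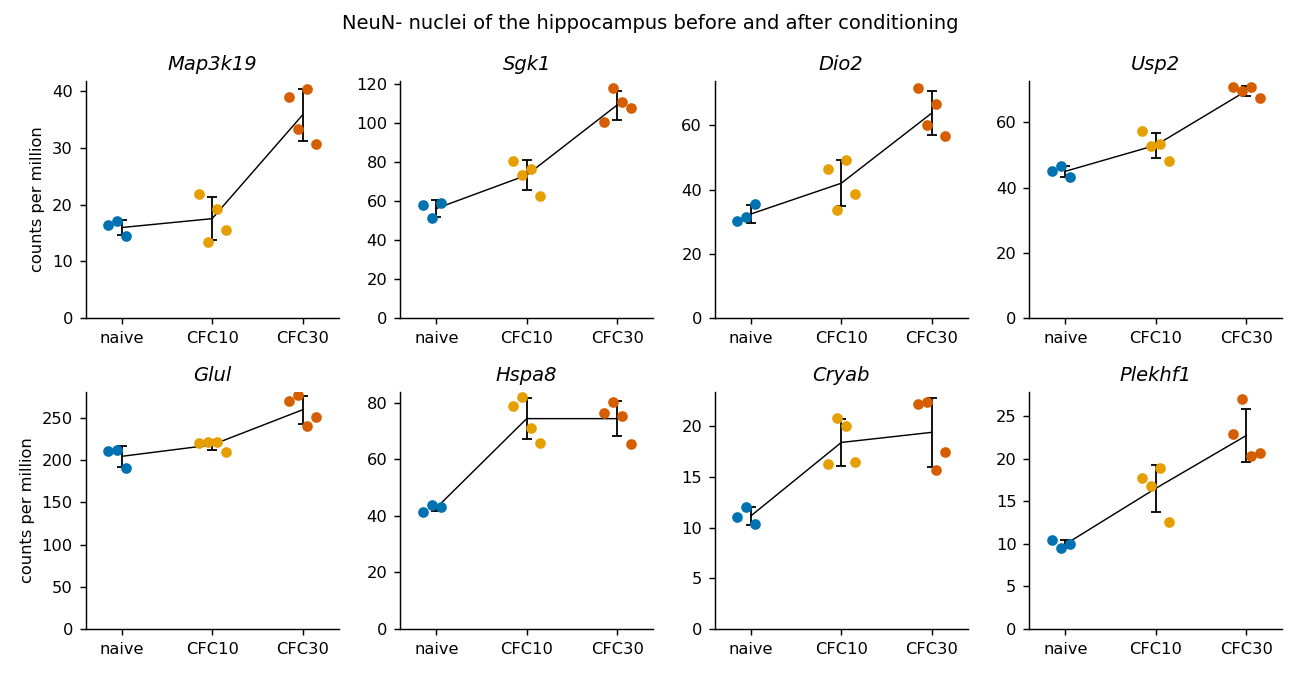
CPM of 8 genes in each NeuN- library (points) of naive nuclei (n = 3), CFC10 (n = 4) and CFC30 (n = 4), with the mean joined by lines and the SD as error bars; vertical axes start at 0. *Map3k19*, *Sgk1*, *Dio2*, *Usp2* and *Glul* were higher at CFC30 than at CFC10, whereas *Hspa8* and *Cryab* stood at a similar level at both times.

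The response of NeuN- nuclei was set against that of NeuN+ nuclei of the same tissue by testing the difference between the 2 CFC30 effects in a joint fit. Whether both fractions were sorted from the same mice is not stated. The fit treated all libraries as independent, and its p-values hold only under that reading. Of 16048 genes in that fit, 24 had a higher effect in NeuN- than in NeuN+ nuclei (0.15%) and 26 a lower one (0.162%). For *Sgk1* the log2 fold change was 0.96 in NeuN- and -0.15 in NeuN+ nuclei (adjusted p = 0.292), a difference of 1.11 (SE 0.12, adjusted p = 1.14e-05). For *Usp2* it was 0.63 in NeuN- and -0.37 in NeuN+ nuclei (adjusted p = 0.00191), where the gene fell, a difference of 0.99 (SE 0.10, adjusted p = 1.05e-06). *Ahsa2* rose in NeuN- nuclei and had -0.18 in NeuN+ nuclei (adjusted p = 0.231), a difference of 0.86 (adjusted p = 0.00178). Reads of *Usp34* and Gm47279, which overlap *Ahsa2*, may be among its counts.

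In the opposite direction, *Homer1*, a scaffold of the postsynapse, had a log2 fold change of 0.08 in NeuN- (adjusted p = 0.578) and 0.90 in NeuN+ nuclei (adjusted p = 8.84e-05), a difference of -0.83 (adjusted p = 3.65e-05). *Trib2*, a pseudokinase, had -0.21 in NeuN- (adjusted p = 0.229) and 0.80 in NeuN+ nuclei (adjusted p = 1.48e-05), a difference of -1.02 (adjusted p = 3.65e-05). Of the 34 chaperones 1, *Ahsa2*, was called in that test. For *Hspa8* the difference was 0.21 (SE 0.16, adjusted p = 0.799), with 0.58 in NeuN+ nuclei (adjusted p = 0.0309).

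In NeuN+ nuclei at CFC30, 605 of 12429 genes were higher than in naive NeuN+ nuclei (4.87%) and 499 lower (4.01%). Of the NeuN- genes that rose, 147 were tested there and 47 of them were higher as well (31.97%, which is 8.5% of the genes higher there), against 4.94% of all genes tested in both. Of those that fell, 54 of 123 were lower as well (43.9%, and 12.5% of the genes lower there), against 3.87%. The list of chaperones had 10 of 30 tested members higher in NeuN+ nuclei, and that of glucocorticoid-responsive genes 7 of 30 higher and 1 lower. Astrocyte and excitatory marker sums in both gates are given above, and the part of nuclei in the wrong gate was not tested.

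The NeuN- nuclei of the mPFC gave a comparison with libraries of its own, prepared with an earlier version of the kit. There 438 of 14869 genes were higher at CFC30 than in naive nuclei (2.95%) and 521 lower (3.5%). Of the 190 hippocampal genes that rose, all were tested in the mPFC and 132 were higher there (69.47%, and 30.3% of the genes higher there), with 0 lower, against 3.14% of all genes tested in both. Of the hippocampal genes that fell, 113 of 192 were lower there (58.85%, and 22.9% of the genes lower there) and 0 higher, against 3.55%. Whether the same mice gave both regions is not stated.

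Several genes described above rose in the mPFC as well. In mPFC NeuN- nuclei it was 2.28 for *Map3k19* (adjusted p = 1.03e-11), 1.45 for *Usp2* (adjusted p = 3.57e-08), 1.40 for *Dio2* (adjusted p = 1.22e-05) and 3.77 for *Nr4a3* (adjusted p = 1.93e-06). It was 0.69 for *Hspa8* (adjusted p = 0.000655) and 1.12 for *Sgk1* (adjusted p = 0.0371). Of the listed chaperones 18 of 34 were higher in the mPFC and of the glucocorticoid-responsive genes 19 of 43, with 1 lower. The size of the response was not tested between the regions.

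Corticosterone given without conditioning was set beside these results. In GFAP+ nuclei 311 of 14529 genes were higher after corticosterone than after saline (2.14%) and 142 lower (0.977%), in PU.1+ nuclei 661 of 14279 were higher (4.63%) and 526 lower (3.68%), and in 3X- nuclei 723 of 14587 were higher (4.96%) and 368 lower (2.52%), with 4 libraries a group. Of the genes that rose in NeuN- nuclei at CFC30, 29 of 180 were higher after corticosterone in GFAP+ nuclei (16.11%, background 2.16%), 36 of 179 in PU.1+ nuclei (20.11%, background 4.8%) and 54 of 178 in 3X- nuclei (30.34%, background 5.08%). These made up 10.0%, 6.0% and 8.1% of the genes higher in those populations. In all, 72 of the 190 were higher in at least 1 of the 3 populations (37.9%, against 8.6% of all tested genes), and 8 in all 3 (4.21%, against 0.27%), among them *Htra1*, *Lrrc8a*, *Nfkbia*, *Fam107a*, *Usp2*, *Tle3* and *Wbp1l*. In PU.1+ nuclei 15 of the 179 were lower after corticosterone (8.38%, background 3.96%). The called genes had a higher median naive CPM than all tested genes, as given above. The part of that level in these shares, and in those for NeuN+ and mPFC nuclei, was not tested. The paper sorted the 3 populations by successive gates, so their libraries may share mice.

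The hormone's effect was then counted over the same lists. Of the glucocorticoid-responsive genes, 22 of 42 were higher after corticosterone in GFAP+, 26 of 38 in PU.1+ and 22 of 40 in 3X- nuclei. *Nfkbia* had log2 fold changes of 0.98, 1.59 and 1.92 in these populations (adjusted p = 9.3e-05, 2.57e-08 and 1.61e-15), and *Fkbp5*, which did not pass at CFC30, had 2.06, 2.44 and 2.05 (adjusted p = 0.00721, 0.00108 and 0.00324). Of the chaperones, 1 of 34 was higher in GFAP+ nuclei (*Hsph1*), 0 of 33 in PU.1+ and 0 of 32 in 3X- nuclei, where 1 was lower (*Dnajb2*), and the medians were 0.02, 0.01 and -0.05. *Hspa8* had log2 fold changes of 0.12 in GFAP+ (adjusted p = 0.723), 0.22 in PU.1+ (adjusted p = 0.204) and 0.04 in 3X- nuclei (adjusted p = 0.845).

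Several of the largest rises were also called after corticosterone. *Arl4d* was higher after corticosterone in GFAP+ nuclei (log2 fold change 1.94, adjusted p = 0.000143) and 3X- nuclei (1.29, adjusted p = 7.65e-08), *Dio2* in GFAP+ (0.60, adjusted p = 0.00729) and 3X- nuclei (1.14, adjusted p = 2.9e-09), and *Plekhf1* in the same populations (1.13, adjusted p = 0.000787, and 0.79, adjusted p = 3.15e-09). *Mobp* was higher in 3X- nuclei (0.80, adjusted p = 1.6e-12). *Map3k19*, with a log2 fold change of -0.23 in GFAP+ nuclei (adjusted p = 0.825), and *Nr4a3*, with -0.26 in GFAP+, 0.08 in PU.1+ and 0.01 in 3X- nuclei (adjusted p = 0.544, 0.928 and 0.988), were not called there. Other early response genes were: *Nr4a1* was higher in PU.1+ (0.60, adjusted p = 0.0378) and 3X- nuclei (0.80, adjusted p = 2.23e-06), *Fosl2* in PU.1+ nuclei (0.96, adjusted p = 7.99e-07), and *Sik1* in PU.1+ (0.86, adjusted p = 0.0014) and 3X- nuclei (0.78, adjusted p = 0.000675). Of the genes that fell at CFC30, 4 of 172 were lower after corticosterone in GFAP+ nuclei (2.33%, background 1.06%), 4 of 127 in PU.1+ nuclei (3.15%, background 3.96%) and 8 of 165 in 3X- nuclei (4.85%, background 2.77%). The sizes of the effects of conditioning and injection were not compared.

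**Figure D5:**
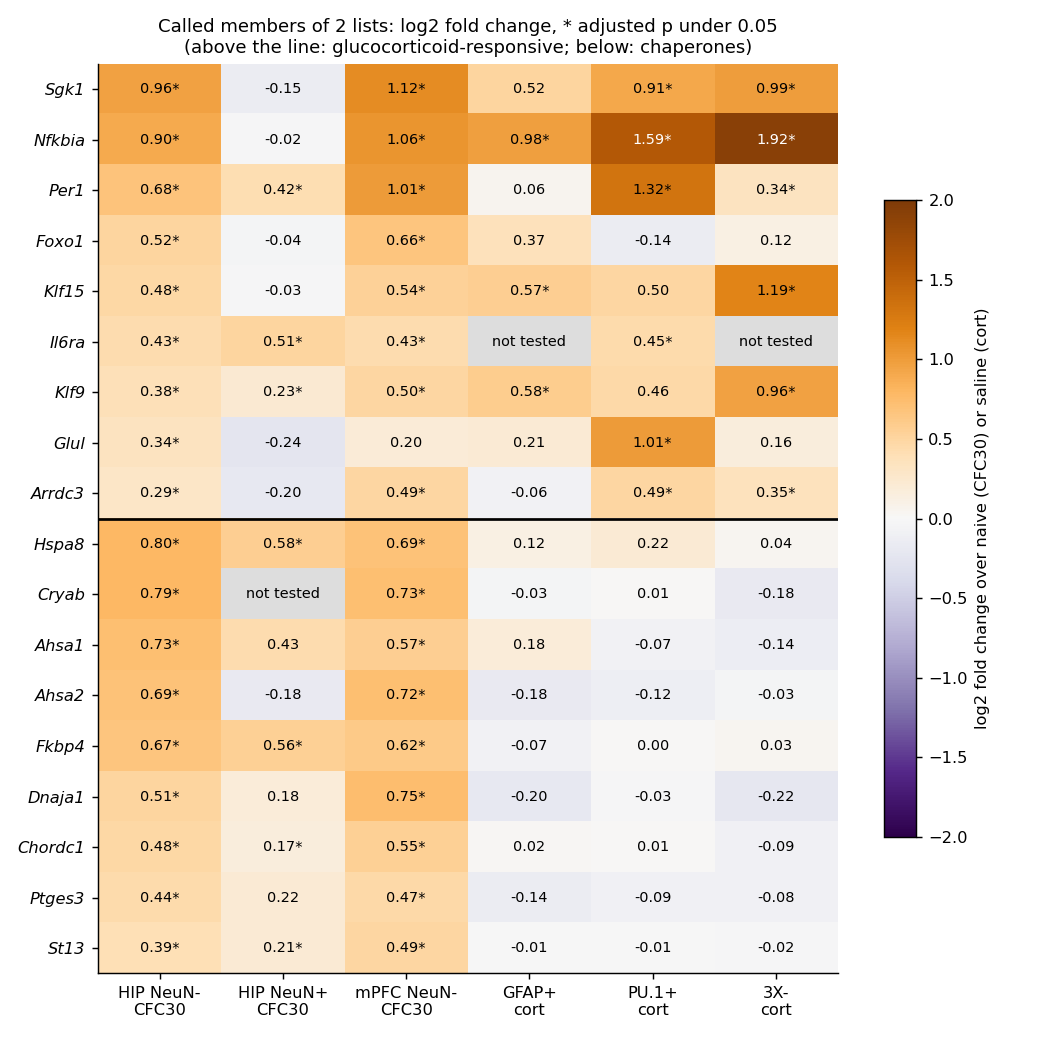
Log2 fold changes (numbers and colours, scale at the right) of the 9 called glucocorticoid-responsive genes (above the line) and the 9 called chaperone genes (below it) in hippocampal NeuN-, hippocampal NeuN+ and mPFC NeuN- nuclei at CFC30 over naive, and in GFAP+, PU.1+ and 3X- nuclei after corticosterone (cort) over saline; an asterisk marks an adjusted p under 0.05. The members were chosen by the first column; chaperone values lie near 0 in the corticosterone columns, between -0.22 and 0.22, whereas *Nfkbia* reaches 1.92.

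The counts of calls depended on which library was left out. Leaving out 1 library at a time left 42 to 169 genes higher and 33 to 214 lower, with the fewest when naive library 3 was left out (42 and 33), and 61 and 51 without CFC30 library 1, 107 and 89 without library 2, 130 and 132 without library 3 and 169 and 214 without library 4. Without naive library 1 they were 46 and 47, and without naive library 2 50 and 59. Without both endothelial-rich libraries, 1 and 2, 41 genes were higher and 36 lower; of the main calls 39 and 23 remained, and all 190 and 199 kept their sign, with median log2 fold changes of 0.37 and -0.42.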

How the data were processed

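Nuclear RNA was sequenced from sorted mouse hippocampal and mPFC nuclei. Whole-number counts per gene were deposited, which the authors made with featureCounts over the gene body after trimming (Trimmomatic), alignment to GRCm38 (HISAT2) and removal of duplicates (Picard). Versions and the strand setting of the counting are not given in the sources used here. γH2AX peaks were called by the authors with MACS2 on merged replicates.

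Counts were analysed with edgeR 4.0.16 (limma 3.58.1, R 4.3.3): TMM scaling, robust quasi-likelihood fits and Benjamini-Hochberg adjustment over all tested genes, with an adjusted p under 0.05 called. Genes needed a group mean above 0.2 FPKM over the gene body. CFC30, CFC10 and naive NeuN- libraries shared a fit, and the NeuN- against NeuN+ difference was an interaction term. The identical pair of naive libraries was counted once. DESeq2 1.42.0, another scaling, other filters, a replicate term, the compared groups alone and omission of libraries were alternatives. The scripts were tested on simulated data. Of the gene IDs, 53682 matched a symbol and 67 did not (0.0232% of counts). Depth was 10561897 to 13957777 counts a library, and counts limit the precision of genes below a few CPM.

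The libraries and the gene lists were chosen with earlier results of these data known. Part of the genes were named by rule. From called genes without overlap between groups, and with at least 50 counts on average on the higher side, it took the 15 that rose most and the 15 that fell most. It also took the 4 smallest adjusted p of each of 17 response lists, the 5 largest interactions in each direction, and genes the study discusses. *Fkbp5*, *Fos*, *Foxo1*, *Mobp*, *Hsph1*, *Dynll1*, *Prdx1*, *Eno1*, *Homer1* and some other genes were named outside this rule. 11 marker lists were also counted. OPC markers summed to 1432.9 to 2113.0 CPM at CFC30, against 1746.3 to 1972.0 CPM in naive nuclei. Promoters were read from RefSeq windows on GRCm38.p6. Values of some single genes are not reported here.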

Additional observations from a re-analysis of the deposited data

Results flagged for a closer look

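Among 49 called named genes, 3 had a CFC30 library far from the other 3 by Dixon's ratio at its 95% critical value, and chance alone gives about 1 such group in 20. *Cdr2* had 24 CPM in library 3. *Spata3* had 4.47 CPM in library 4, and *4930447K03Rik* had 6.35 CPM in library 4, in each case the highest value of its group.

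The CFC30 effect differed between NeuN- and NeuN+ nuclei by the interaction test for *Homer1*, given above, and for the 10 genes that the naming rule took from that test. The difference, NeuN- minus NeuN+ on the log2 scale, was 1.11 for *Sgk1*, 0.99 for *Usp2*, 0.86 for *Ahsa2*, 0.85 for *Zfp46* and 0.64 for *Arhgap22*. It was -1.28 for *Plk3*, -1.02 for *Trib2*, -0.91 for *Abca6*, -0.89 for *Ovgp1* and -0.62 for *Gm45846*. *Zfp46* had -0.13 in NeuN- and -0.98 in NeuN+ nuclei, and *Plk3*, a polo-like kinase, had -0.50 in NeuN- and 0.78 in NeuN+ nuclei.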

How the results depend on the processing

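The main counts were 190 higher and 199 lower for CFC30 over naive, 15 and 13 for CFC30 over CFC10, 22 and 41 for CFC10 over naive, and 24 and 26 for the NeuN- against NeuN+ difference. DESeq2 gave 265 and 246 for CFC30 over naive, sharing 183 and 166 with the main calls, 48 and 26 for CFC30 over CFC10, 56 and 125 for CFC10 and 37 and 77 for the difference. Upper-quartile scaling gave 145 higher and 245 lower (37.2% higher, against 48.8%) and 22 lower for CFC30 over CFC10. Without the FPKM filter the counts were 445 and 404, 71 and 55, 233 and 245, and 80 and 84; above 1 FPKM they were 101 and 97 for CFC30 and 12 and 20 for CFC10. With only the compared groups they were 1 and 0 for CFC30 over CFC10 and 43 and 81 for CFC10. Leaving out 1 library gave 42 to 169 higher and 33 to 214 lower for CFC30 over naive, 3 to 35 and 0 to 26 for CFC30 over CFC10, 2 to 21 and 1 to 32 for CFC10, and 9 to 27 and 11 to 39 for the difference. Without CFC30 libraries 1 and 2, an alternative chosen after seeing the data, they were 41 and 36, 1 and 1, and 15 higher for the difference. The causes were not tested. Of 49 called named genes 15 kept their call in every alternative and 0 changed sign. Of 50 named genes not called, 24 gained a call in some alternative. Among these were *Ddit4* and *Egr1*, called in 3 alternatives each. With the replicate number as a replicate block, 323 and 366 genes were called for CFC30 and 86 and 152 for CFC10. Deviations of same-numbered CFC30 and naive libraries from their group means correlated at -0.05, 0.30 and 0.11. Whether the numbers mark libraries handled together is not stated, and these correlations are too few to decide it.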
